A study of Homo sapiens with 32 samples.

Results

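The data described here compare uracil enrichment in the genome of HCT116 cells treated with raltitrexed (RTX) with that of the same cells without drug (NT). The members were the enriched samples whose labels give the cell line HCT116, the UGI transgene and either RTX or no treatment, 4 of the 32 samples of the series, with 2 RTX_UGI and 2 NT_UGI libraries. HCT116 is a human colorectal carcinoma line that lacks mismatch repair (MMR). All 4 libraries came from cells that had been transduced by retrovirus with UGI together with EGFP and then sorted for green fluorescence. UGI is a small protein that blocks uracil-DNA glycosylase. The RTX_UGI cells received 100 nM RTX for 48 h, and the NT_UGI cells received no drug. Other libraries of the series were used only for comparison, namely 4 of the MMR proficient HCT116 variant with UGI (2 with RTX at the same dose and time, 2 without drug), 2 of MMR deficient UGI cells exposed for 48 h to 20 µM of the nucleoside analogue 5FdUR, and 2 wild type (WT) libraries with neither UGI nor drug. The MMR proficient 5FdUR_UGI libraries, also 2, entered only an alternative fit of all 14 HCT116 libraries. The data are DNA enrichment and hold no expression, so the identity of the cells was not checked on marker genes.

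As background, RTX is a folate analogue that inhibits thymidylate synthase, the enzyme that makes dTMP from dUMP. When dTMP runs short and dUTP accumulates, DNA polymerases place uracil opposite adenine in newly made DNA. Uracil-DNA glycosylase normally removes this uracil as the first step of base excision repair, and with UGI present the uracil stays in the DNA. In U-DNA-Seq, sonicated DNA is pulled down with a catalytically inactive FLAG-tagged glycosylase (ΔUNG) and sequenced beside its input. A region is a stretch of GRCh38 in which coverage of the pulled-down DNA relative to its input, on a log2 scale, lies above a threshold. Coverage is scaled within each library, so a region marks enrichment relative to the rest of that library, not an amount of uracil. Per the paper, a dot blot found more genomic uracil after RTX than without drug in cells with UGI. Higher and lower, or rose and fell, therefore refer to covered share, and a fall does not mean that uracil was lost. The covered share of a chromosome, gene or bin is the percentage of its known bases that lie in regions. The authors chose the threshold library by library so that total length would be similar within a condition, and the lowest log2 values were 0.25 in both RTX libraries and 0.29 and 0.32 in the NT libraries. Total covered length therefore reflects that choice as well as the DNA, and was not tested. It was 505.6 and 554.9 Mb in the RTX libraries and 320.7 and 325.1 Mb in the NT libraries. The region files hold no read depth and allow no counting interval, and the spread between the 2 libraries of a group is the only measure of error.

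The following lines show 200 bases from the middle of the strongest region found in both libraries of a group, ranked by the lower of its 2 log2 values, with at most 1 region a chromosome and chromosomes 8 and Y left out (1 from the RTX libraries and 2 from the NT libraries), on the plus strand of GRCh38, 5′ to 3′. Capitals mark CG dinucleotides, which read the same on both strands. They are shown as examples of strongly enriched sequence. A further RTX sequence that the same rule chose is not reported here, so no difference between the conditions is drawn from these lines.
RTX chr17:60073101-60073300: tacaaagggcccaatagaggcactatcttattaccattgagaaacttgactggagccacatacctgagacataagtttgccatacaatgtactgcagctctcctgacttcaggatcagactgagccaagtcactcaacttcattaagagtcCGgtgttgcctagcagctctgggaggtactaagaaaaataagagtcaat
NT chr14:16093501-16093700: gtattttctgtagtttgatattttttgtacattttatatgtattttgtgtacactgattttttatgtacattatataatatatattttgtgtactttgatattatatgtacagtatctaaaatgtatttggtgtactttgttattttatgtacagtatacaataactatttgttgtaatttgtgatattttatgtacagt
NT chr5:118540701-118540900: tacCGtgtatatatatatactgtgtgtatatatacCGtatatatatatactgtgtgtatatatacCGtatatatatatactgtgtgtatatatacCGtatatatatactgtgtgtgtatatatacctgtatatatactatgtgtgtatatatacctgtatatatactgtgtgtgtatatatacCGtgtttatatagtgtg
The RTX sequence overlaps an exon of HEATR6 and lay in a shared region of 79800 bp, with log2 values of 0.761 and 0.816 in RTX replicates 1 and 2. Both NT sequences lie between protein-coding genes, in shared regions of 7400 and 7000 bp. Their log2 values were 1.19 and 1.24 on chromosome 14, and 1.01 and 1.42 on chromosome 5. The GC content was 44% in the RTX sequence shown and 20.5% and 26% in the NT sequences. With 1 RTX sequence left out, place, length and GC content describe only the sequences shown and not the conditions. Over all region bases, at least 1 CG was found in 80.3% and 81.1% of 200-base windows of the RTX libraries, and in 56.8% and 57.1% of those of the NT libraries. The share over the whole genome was 72.2%, so the 2 conditions lay on opposite sides of it.

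Uracil-enriched regions were far longer after RTX. The length such that regions at least that long hold 50% of region bases (N50) was 19.4 and 31.6 kb in the RTX libraries (25500 ± 8627 bp, SD, n = 2) and 5.3 and 4.9 kb in the NT libraries (5100 ± 283 bp), a 5.0-fold difference in the means. Median region length did not separate the groups, at 1200 and 1300 bp after RTX against 1400 and 1200 bp without drug. The thresholds differed between libraries, and region edges were not redrawn at a common one. Among regions with a log2 value of at least 0.34 the median was longer after RTX by 1.70 on the log2 scale. In the strongest 300 Mb of each library it was longer by 3.11. Both settings drop whole regions by log2 value, which was lower in short regions. In regions of 1 to 5 kb the mean log2 value was 0.310 and 0.309 after RTX, below the limit, against 0.374 and 0.400 without drug, above it. These settings thus cannot show how the thresholds affected the median. Regions of at least 100 kb numbered 455 and 844 in the RTX libraries and 0 in both NT libraries, where the longest region measured 64.4 kb. Regions of at least 20 kb held 49.3% and 59.0% of RTX region bases and 3.29% and 1.82% of NT region bases. With 2 libraries on each side, the two-sided exact permutation test cannot give a p below 0.333, and it gave that p for N50.

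**Figure D1:**
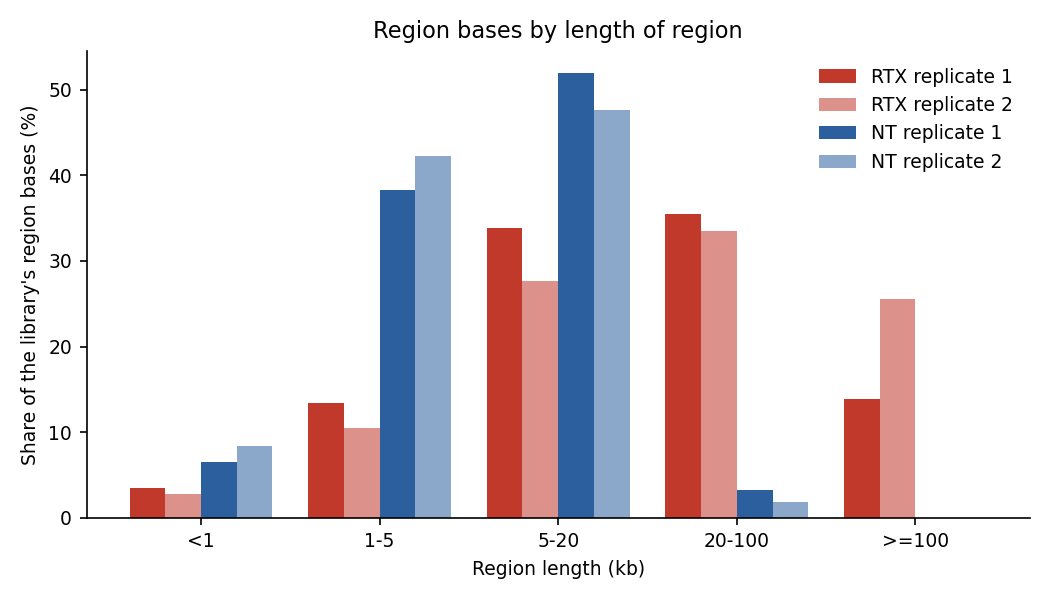
Share of a library's region bases (percent, vertical axis) held by regions of each length class (kb, horizontal axis), with a bar for each RTX and NT library. Regions of 100 kb or more hold 13.8% and 25.6% of the bases in the RTX libraries and none in the NT libraries.

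Longer regions had higher mean log2 values in all 4 libraries, from 0.267 in RTX regions under 1 kb to 0.549 and 0.578 in those of at least 100 kb. The mean log2 value over bases was 0.429 and 0.459 after RTX against 0.424 and 0.435 without drug, and the groups overlapped (exact permutation p = 0.667). The strong end differed by its extent. Regions with a log2 value of at least 0.5 covered 123.8 and 209.5 Mb after RTX and 54.9 and 54.8 Mb without drug. The highest value of a library was nevertheless lower after RTX, at 0.768 and 0.816, than in the NT libraries, at 1.19 and 1.42. These NT maxima rest on few regions, since only 4 and 10 regions, of 34.4 and 76.5 kb in all, reached a log2 value of 1. The 90th percentile over bases was higher after RTX, at 0.552 and 0.601 against 0.531 and 0.527.

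The regions of the 2 conditions scarcely overlapped. The Jaccard index, which is shared bases divided by the bases in either library, was 0.626 between the RTX libraries and 0.374 between the NT libraries, and ranged from 0.0161 to 0.0247 over the 4 pairs of an RTX and an NT library. Both RTX libraries shared 408 Mb and both NT libraries shared 176 Mb, and 4.48 Mb was found in all 4. This was 1.10% of the bases common to the RTX libraries and 2.55% of those common to the NT libraries. The bases kept in all 4 were AT-rich like NT regions (GC 34.01%) and lay in protein-coding genes (61.0%) more like RTX regions. A further 1851 Mb of the genome was in no region of any of the 4 libraries.

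Relative enrichment lay in AT-rich DNA without drug and in GC-rich DNA after RTX. The GC content of region bases was 44.8% and 45.2% in the RTX libraries and 33.5% and 33.9% in the NT libraries, beside 40.9% for the genome, with an exact permutation p at its smallest value of 0.333. Across bins of 100 kb the 2 conditions ran in opposite directions over almost the whole range. In bins under 34% GC, the covered share was 0.732% and 0.363% after RTX against 62.3% and 55.1% without drug. In bins of 50 to 52% GC, it was 56.5% and 63.0% after RTX against 0.122% and 0.374% without drug. The lines crossed near 38 to 40% GC, where the RTX libraries stood at 9.34% and 9.76% and the NT libraries at 6.34% and 7.90%. After RTX the covered share levelled off above 50% GC. The share of bases in protein-coding genes moved with GC content, from 25% of the bins under 34% GC to 69.0% of those of 54% or more, and its part in the difference was not tested.

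**Figure D2:**
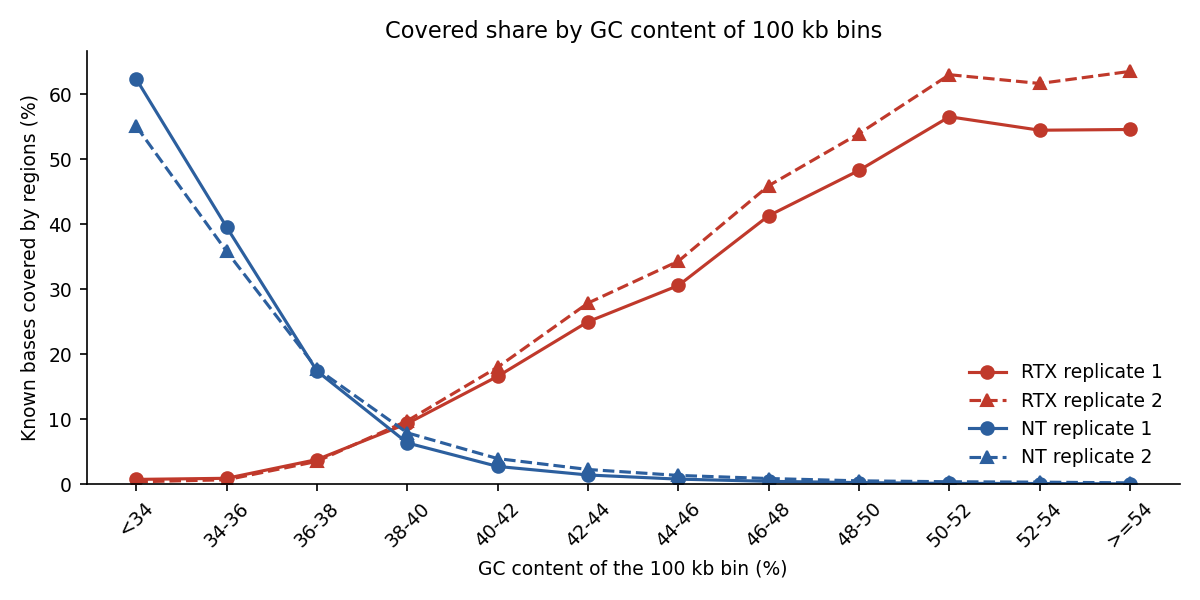
Covered share (percent of known bases) of 100 kb bins grouped by GC content, with a line for each RTX and NT library. The RTX lines climb from under 1% below 34% GC to over 50% above 50% GC, and the NT lines fall from over 55% to under 0.5%.

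A bin was called when limma on the arcsine square root of covered share gave an adjusted p below 0.05 and the 2 groups did not overlap. Of 27115 bins with a region in any of the 4 libraries, 8294 (30.6% of those tested) were higher after RTX and 12905 (47.6%) were lower. The bins that were higher had a median GC content of 44.6% and a median covered share of 60.8% and 70.2% after RTX, with no coverage at the median in either NT library. The bins that were lower had a median GC content of 37.0% and a median of 17.3% and 17.6% in the NT libraries, with none after RTX. In the bins of 54% GC or more, 93.0% were called higher and 0.195% lower. In the bins under 34% GC, none were called higher and 99.3% lower. The number of calls depended on having both libraries of a group. Without NT replicate 1 or 2, 280 or 503 bins were called higher, and without RTX replicate 2, 5527 were. Without RTX replicate 1 or 2, 3400 or 3181 bins were called lower. When only the strongest 300 Mb of each library was kept, 4224 bins were higher and 13963 lower.

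Called bins lay side by side in long domains. Higher bins formed 1435 runs, of which 239 spanned at least 1 Mb and held 55.1% of the called length. Lower bins formed 2309 runs, of which 321 spanned at least 1 Mb and held 63.9%. Of 17787 pairs of adjacent bins that were both called, 332 were called in opposite directions.

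The longest higher run was chr11:63500001-70600000, 7.1 Mb of 50.8% GC with 195 protein-coding genes, among them SHANK2, which encodes a postsynaptic scaffold protein, the chloride channel gene ANO1, and PACS1. Its covered share was 74.6% and 81.6% after RTX against 0.197% and 0.248% without drug. The next were chr19:44400001-51200000 (248 genes, including MARK4, ARHGAP35 and MYH14), at 67.7% and 76.9% against 0.244% and 0.287%, and chr1:22600001-29300000 (122 genes, including EPB41, EPHB2 and MAN1C1), at 81.5% and 87.2% against 0.433% and 0.733%. All 3 were gene-rich, and RTX covered more than 60% of each in both libraries.

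The longest lower runs were longer and held few genes. The first was chr5:17600001-31400000, 13.8 Mb of 35.3% GC with 11 protein-coding genes, of which the longest were the type II cadherin genes CDH18, CDH12 and CDH9. Its covered share was 43.8% and 36.9% without drug against 0.0493% and 0% after RTX. In chr13:60300001-73000000, which holds 12 genes including PCDH9, DACH1 and KLHL1, the NT libraries had 48.0% and 41.3% and the RTX libraries 0.104% and 0.0252%. In chr4:57300001-68400000, which holds 12 genes including ADGRL3, EPHA5 and TECRL, the values were 40.5% and 35.7% against 0.203% and 0.0940%. Each of these 3 domains was AT-rich and held no more than 12 protein-coding genes.

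Single regions after RTX could span whole gene neighbourhoods. The longest stretch found in both RTX libraries was chr14:68952901-69391100, 438200 bp over DCAF5, GALNT16, EXD2 and ACTN1, of which the NT libraries covered 0.137% and 2.62%. The next, chr5:141878901-142305900, spanned 427000 bp over NDFIP1, RNF14, PCDH12 and GNPDA1, with 0.0234% and 0% in the NT libraries. The fourth, chr3:129232601-129540500, spanned 307900 bp without any NT region and included HMCES, whose product shields abasic sites in DNA, and MBD4, which encodes a glycosylase. The longest stretch found in both NT libraries, chr5:99191201-99235600, measured 44400 bp and held no protein-coding gene, and the RTX libraries covered 2.93% and 12.4% of it.

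Of the 23 chromosomes tested (1 to 22 and X), 15 (65.2%) were called higher after RTX and 4 (17.4%) lower. Chromosome 17 had the largest difference, at 39.8% and 43.5% after RTX against 3.52% and 4.18% without drug (difference of 37.8 percentage points). Chromosome 22 followed at 35.4% and 39.5% against 1.44% and 1.93%, and chromosome 19 at 32.8% and 37.6% against 1.27% and 1.75%. These are the 3 chromosomes of highest GC content. The 3 largest decreases were on chromosome 13, at 8.08% and 8.90% against 20.8% and 19.4%, on chromosome 4, at 8.72% and 9.35% against 20.5% and 19.3%, and on chromosome 18, at 8.12% and 8.99% against 12.6% and 12.5%. The groups did not overlap on any of the 23 chromosomes, called or not, and a call requires this, so it does not set these 6 apart. Once each value was divided by the share of the genome covered in its library, 12 chromosomes were higher and 11 lower, and chromosomes 2, 3 and 7 passed from higher to lower. The 6 named here kept their direction. Over the 23 chromosomes, Pearson's r of covered share with GC content was 0.883 and 0.900 in the RTX libraries and -0.864 and -0.883 in the NT libraries, given as a description since the chromosomes share their library. Chromosome X, picked out after its values were seen, had few regions in either condition, at 6.55% and 7.51% after RTX and 5.69% and 6.38% without drug. Chromosome 3, of nearly the same GC content (39.7% against 39.5%), had 16.4% and 17.9% and 13.2% in both NT libraries.

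A larger share of region bases lay in genes after RTX, and a smaller share between them. Protein-coding genes held 57.6% and 57.3% of region bases in the RTX libraries and 35.7% and 35.9% in the NT libraries, beside 44.4% of the genome, and exons held 7.87% and 7.98% against 2.11% and 1.83%, beside 3.70% of the genome. Part of this could be compared at matched base composition. In 5 kb windows of 35 to 38% GC, RTX regions covered 12.7% and 12.3% of bases inside genes and 4.58% and 4.64% outside them. NT regions covered 13.5% and 15.1% inside and 14.5% and 16.1% outside. In windows of 44 to 48% GC, RTX regions covered 30.2% and 34.02% inside genes and 29.2% and 32.7% outside. The excess inside genes after RTX was thus seen in AT-rich windows and was small in GC-rich ones.

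Around genes, RTX coverage formed a broad plateau with a notch at the start. In 2 kb windows centred 20 kb upstream of the starts of protein-coding genes, the covered share was 44.9% and 49.1% after RTX and 3.88% and 4.60% without drug. At the start itself it was 32.4% and 39.1% after RTX and 1.46% and 1.34% without drug, and 6 kb downstream it was 43.9% and 48.6% and 4.15% and 4.39%. All 4 libraries were lower at the start than at these flanks. The window at the start has the highest GC content, 54.5% against 44.9% at 12 kb upstream. Across 100 kb bins, covered share rose with GC content after RTX and fell with it without drug. The dip thus ran against that trend in the RTX libraries only, and its cause was not tested. Gene ends showed no notch of that size, with 39.8% and 44.9% after RTX at the end and 40.8% and 44.97% 20 kb before it.

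**Figure D3:**
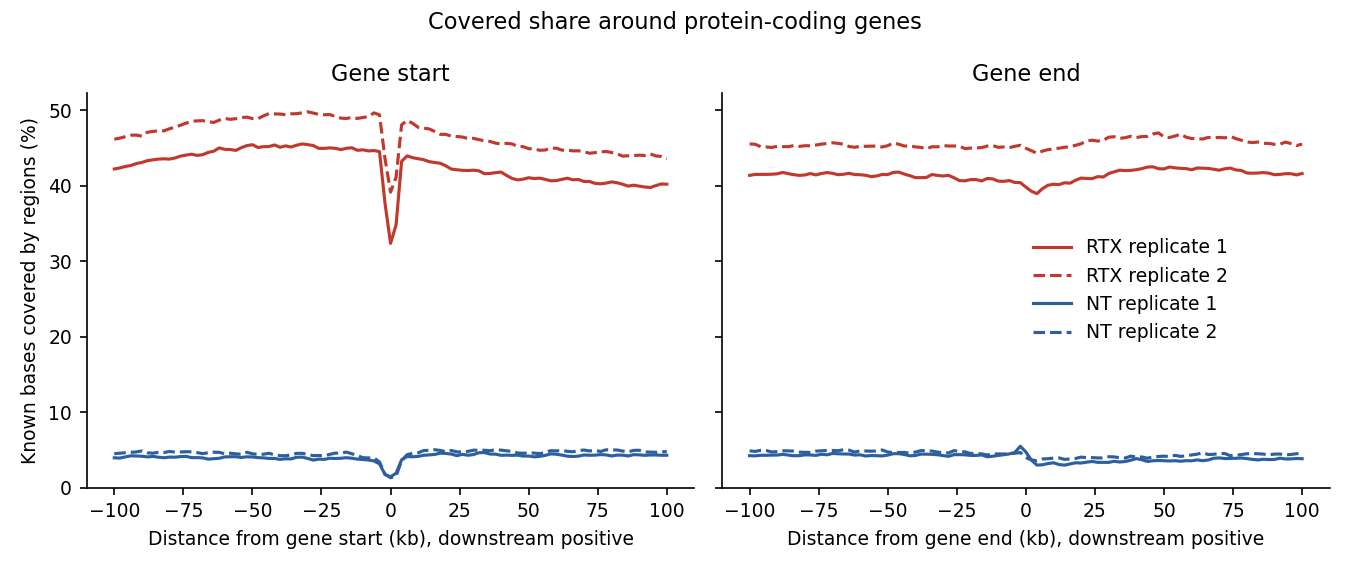
Covered share (percent of known bases) in 2 kb windows from 100 kb before to 100 kb after the start (left) and the end (right) of protein-coding genes, with a line for each RTX and NT library. All lines dip at the gene start, where the RTX libraries reach 32.4% and 39.1%.

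Of 17122 protein-coding genes with a region in any of the 4 libraries, 9583 (56.0% of those tested) were called higher after RTX and 2050 (12%) lower. Genes that were higher were GC-rich, with a median GC content of 48.3% beside 45.3% over all protein-coding genes, and of a median length of 29.04 kb beside 27.5 kb, and had a median covered share of 81.5% and 90.04% after RTX. Genes that were lower were long and AT-rich, with medians of 126 kb and 37.4%, and were covered by 16.99% and 17.03% at the median in the NT libraries. In both RTX libraries at least 90% of the length was covered in 3437 genes, of which 2983 had no region in either NT library. The reverse was rare, with 23 genes covered over at least 90% in both NT libraries. These counts are tied to region length, since N50 was only 5300 and 4900 bp in the NT libraries, and to the lower RTX thresholds. Without NT replicate 1 or 2, 2307 or 3007 genes were called higher, and without RTX replicate 1 or 2, 569 or 519 were called lower. In the strongest 300 Mb of each library, 4246 genes were higher, and with regions of at least 5 kb, 926 were lower.

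The direction changed with gene length. Among genes of 10 to 50 kb, 65.2% were called higher and 5.75% lower. Among those of 200 to 500 kb the shares were 27.4% and 42.4%, and among the 71 genes of at least 1 Mb, 63 were lower and 1 was higher. The exception was KAZN, which rose from 0.792% and 1.05% without drug to 4.23% and 4.51% after RTX and was singled out after its values were seen. The median GC content fell over the same classes, from 46.3% at 10 to 50 kb to 37.1% at 1 Mb and above, and the parts of length and GC content were not separated.

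The longest genes that rose by at least 50 percentage points came from many chromosomes. The longest was CDH23 (ENSG00000107736, chr10:71396920-71815947), the cadherin of hair cell tip links. It had 63.9% and 78.4% after RTX against 0% and 0.0955% without drug (difference 71.1 points, adjusted p = 0.00787, limma). SKAP1 (ENSG00000141293, chr17:48133442-48430275), a T cell adaptor gene, was covered by 95.9% and 98.3% against 9.23% and 10.5% (difference 87.2 points, adjusted p = 0.00189, limma). CTNNA1, which encodes the alpha-catenin that links cadherins to actin, had 56.7% and 57.5% against 0% in both NT libraries. The other genes in this group were MKLN1, MGLL, MEGF11, MRPS22, SHROOM3, ZSWIM5, NAV1, PEBP4 and BCAR3, with differences of 53.6 to 85.9 points. That the groups were far apart in all 12 follows from how they were picked. All 12 were also called higher in the MMR proficient cells, beside 77.1% of genes called higher at any size of difference.

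The longest genes that fell by at least 50 points lay on 9 chromosomes. CSMD3 (ENSG00000164796, chr8:112222928-113436939) had 68.4% and 62.8% without drug and 0.0247% and 0% after RTX (adjusted p = 0.00168, limma). CADM2 (ENSG00000175161, chr3:84958989-86074429), a synaptic adhesion gene, had 53.7% and 47.9% against 0.0538% and 0.126% (adjusted p = 0.00221, limma). KCNT2 (ENSG00000162687, chr1:196225779-196609225), a potassium channel gene, had 55.8% and 57.4% against no region in either RTX library (adjusted p = 0.00011, limma). The remaining 9 were MGAT4C, FSTL5, NCAM2, PCLO, KLHL1, BRINP3, EPHA3, EPHA5 and ZNF804A, which had 44.6% to 68.4% in the NT libraries and at most 0.419% in the RTX libraries. PCLO encodes a protein of the presynaptic active zone, and EPHA3 and EPHA5 encode ephrin receptors. The GC contents of the 12 genes lay between 33.3% and 34.6%. All 12 were also called lower in the MMR proficient cells, beside 65.5% of genes called lower at any size of difference. Of these 24 genes that rose or fell, 16 and 15 kept their call without RTX replicate 1 and 2, and 11 and 14 without NT replicate 1 and 2, with no change of direction.

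Genes of the pathway that RTX targets were called higher about as often as genes in general. Of the 38 listed genes of folate and thymidylate metabolism, 36 had a region, 22 were called higher and 2 lower, with a median difference of 62.4 points beside 47.1 points over all genes with a region. The share called higher, 61.1%, was near the background of 56.0%. With only the strongest 300 Mb of each library, 9 of the 38 were called higher, beside 4246 of all 19970 protein-coding genes. MTHFD2 and SHMT2, which encode enzymes of one-carbon metabolism, were called higher. RTX regions covered 100% of MTHFD2 in both libraries and 92.5% and 88.8% of SHMT2, with no region without drug. MTHFD2 was also called higher in the MMR proficient cells and in the strongest 300 Mb. SHMT2 was not called in the proficient cells, at 0% and 11.2% after RTX, and had no region in the strongest 300 Mb. FPGS, which adds the glutamate tail that keeps antifolates in the cell, and the thymidine kinase gene TK1 were covered wholly in both RTX libraries and not at all in the NT libraries. TYMS, the gene for thymidylate synthase itself, had 0% and 5.65% after RTX and no region without drug, and was not called (adjusted p = 0.393, limma). It had no region in either RTX library of the MMR proficient cells, and 42.4% and 41.1% after 5FdUR. The uptake genes SLC19A1 (20.1% and 23.1% after RTX) and SLC46A1 (62.6% and 100%) differed in their calls, since SLC46A1 did not pass (adjusted p = 0.0578, limma). The 2 that fell were RRM2B, a subunit of ribonucleotide reductase, at 27.9% and 22.3% without drug, and the mitochondrial folate carrier gene SLC25A32, at 25.97% and 31.4%, both with no region after RTX. MTHFD2L was called higher (74.8% and 61.6% against 29.6% and 27.6%), but in the strongest 300 Mb of each library the difference in covered share of MTHFD2L turned to -10.2 points.

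Of 23 listed genes of dUTP breakdown and uracil base excision repair, 19 had a region and 14 (73.7%) were called higher, with none lower, beside 56.0% and 12% of all genes with a region. In the strongest 300 Mb of each library, 7 of the 23 were called higher, beside 4246 of all 19970 protein-coding genes. SMUG1 and MBD4, which encode other glycosylases that act on uracil, and APEX1, the main abasic site endonuclease, were covered by 100% in both RTX libraries and had no region in the NT libraries. UNG, the gene for the glycosylase that UGI blocks, rose to 46.0% and 75.5% from 0% (adjusted p = 0.0264, limma). DUT, whose product breaks down dUTP, had no region in any of the 4 libraries. The APOBEC3 cytidine deaminase genes are neighbours on chromosome 22 and share regions, and both APOBEC3A and APOBEC3G were covered wholly after RTX and had no region without drug.

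Of 19 listed mismatch repair genes, all had a region, 11 (57.9%) were called higher and 2 (10.5%) lower, close to the background in both directions. The mismatch recognition gene MSH6 rose to 38.9% and 47.4% from 2.18% and 0%. PMS2, which encodes an endonuclease of the pathway, had 79.1% and 84.6% after RTX against 0% in both NT libraries. EXO1, which encodes an exonuclease, fell from 16.7% and 12.3% to no region, and RFC3, a clamp loader gene, fell from 8.35% and 8.89% to 1.08% and 0%.

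In 5 lists most genes with a region fell, beside 12% that fell and 56.0% that rose among all genes with a region. Of 25 common fragile site genes, 22 (88%) fell and 2 (8%) rose, with a median difference of -15.0 points. The median length of this list was 1337 kb, and of all genes of at least 1 Mb 88.7% fell and 1.41% rose. RAD51B, a DNA repair gene, was an exception and rose to 41.7% and 49.5% from 6.08% and 7.44%. In the MMR proficient cells RAD51B was not called, at 12.9% and 13.7% with RTX against 6.13% and 6.78% without. Of 40 neuronal synapse genes 31 (77.5%) fell and 4 (10%) rose, with a median of -24.2 points. Their median length was 530 kb, and of all genes of 500 to 1000 kb 70.9% fell and 9.56% rose. GABRG1, a GABA receptor gene, was covered by 75.8% and 74.9% without drug and not after RTX, while NRXN2, a GC-rich neurexin gene, rose to 89.9% and 99.8%. Of 13 type II cadherin genes 10 (76.9%) fell and 3 rose, and CDH19 had 84.8% and 68.2% without drug against 1.46% and 0% after RTX. Of the SLITRK and non-clustered protocadherin genes, 12 had a region and 8 (66.7%) fell, among them SLITRK6 (77.0% and 85.7% against none). Of the clustered protocadherins 25 of 35 with a region (71.4%) fell and none rose. However, these genes share exons and regions, and their changes were small (median -3.72 points). When only the strongest 300 Mb of each library was kept, 10 of the 53 listed fell, beside 1972 of all 19970 protein-coding genes.

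The other lists ranged from 12.2% to 70.6% of genes that rose, on both sides of the background of 56.0%. Over all 19970 protein-coding genes, 4246 rose and 1972 fell in the strongest 300 Mb of each library. The full lists hold 35 replication, 80 ribosomal protein, 39 HOX, 25 p53 target, 76 histone and 24 intestinal genes. They also hold 19 mismatch repair, 24 driver, 400 olfactory receptor and 251 zinc finger genes. DNA replication genes rose in 24 of 34 cases (70.6%) and fell in 3, with 12 higher and 5 lower in the strongest 300 Mb of each library, and with POLE3 and TIMELESS covered by 100% after RTX and by none without drug. Cytosolic ribosomal protein genes rose in 41 of 63 cases and none fell, with 12 of them called higher in the strongest 300 Mb. HOX genes rose in 15 of 29 cases, p53 target genes in 12 of 23, histone genes in 14 of 26 and genes of intestinal epithelium in 11 of 20. In the strongest 300 Mb the counts were 10, 7, 5 and 6. In the strongest 300 Mb of each library, mismatch repair genes were split at 6 higher and 5 lower. Among colorectal cancer drivers 9 of 21 rose and 3 fell (5 and 5 in the strongest 300 Mb), with ARID1A at 96.6% and 100% after RTX and no region without drug. Olfactory receptor genes and the zinc finger genes of chromosome 19 were split, with 27 higher and 55 lower of 222, and 28 higher and 42 lower of 146, and with 14 and 50, and 7 and 24, in the strongest 300 Mb. When values were divided by the covered share of the library, the zinc finger counts were 37 and 46, and under that scaling every group kept its majority direction.

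**Figure D4:**
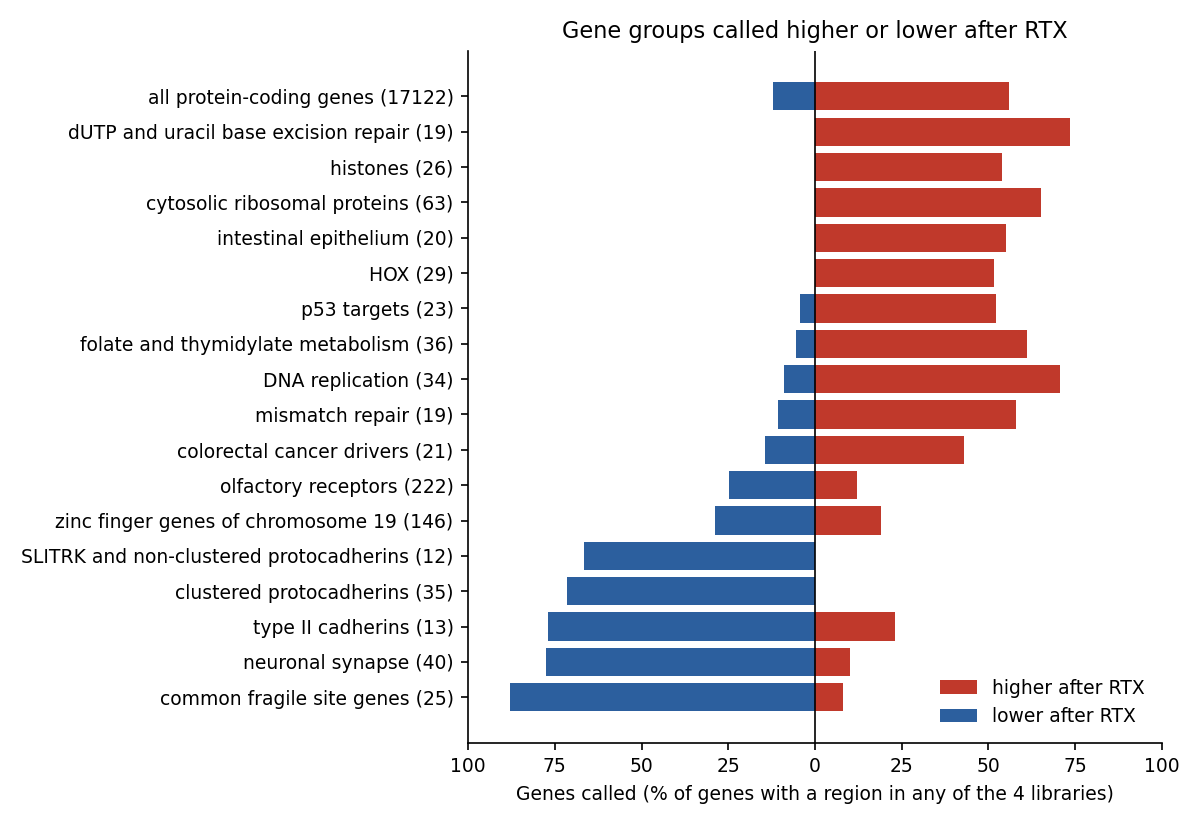
Share of genes in each group called higher (right) or lower (left) after RTX, in percent of genes with a region in any of the 4 libraries, whose number stands in brackets. Fragile site, synaptic and cadherin groups lie to the left and repair, replication and ribosomal protein groups to the right, beside 56.0% higher and 12% lower over all genes.

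The MMR proficient cells, whose libraries are separate from the 4 described so far, gave the same picture. There, 8948 of 27194 bins (32.9%) were higher and 12024 (44.2%) lower after RTX. Of the 8294 bins that were higher in MMR deficient cells, 8281 could be tested in the proficient cells, 8229 (99.4%) had the same sign and 7712 (93.1%) were called higher there. Of the 12905 that were lower, 12865 could be tested, 12494 (97.1%) had the same sign and 10869 (84.5%) were called lower. Without NT replicate 1 or 2 of the proficient cells, 380 or 451 bins were called higher. At gene level, 7244 of 9397 genes (77.1%) called higher and 1329 of 2030 (65.5%) called lower were called the same way in the proficient cells, where the background was 52.1% and 10.1%. For the domain on chromosome 11, the proficient libraries had 47.5% and 65.7% with RTX against 0.145% and 0.110% without. For the cadherin domain on chromosome 5 they had 0.00435% and 0% against 42.1% and 39.6%. A test of the difference between the cell lines found 42 of 27701 bins (0.152%).

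5FdUR, which blocks thymidylate synthase through its monophosphate, was given at 20 µM, and RTX at 100 nM, so the drugs cannot be compared at matched doses. Per the paper, 5FdUR is also built into DNA itself, and the pull-down captures fluorouracil as well as uracil. Regions after 5FdUR can therefore hold both bases, which were not separated. Side by side, the chromosome 11 domain had 50.2% and 30% after 5FdUR beside 74.6% and 81.6% after RTX, and the chromosome 5 domain 0.00145% and 3.29% beside 0.0493% and 0%. Between RTX and 5FdUR, 3215 of 24343 bins (13.2%) were called higher and 2886 (11.9%) lower. Among genes, 1683 (9.44%) were called higher and 618 (3.47%) lower. The bin calls rested on both libraries, since none was called higher without RTX replicate 1 or without RTX replicate 2, 135 or 390 were without 5FdUR replicate 1 or 2, and none was when regions below a log2 value of 0.34 were left out. UGI without drug was compared with WT cells as a control. None of 24042 bins was called by limma, with 978 at an unadjusted p below 0.05, and the smallest adjusted p was 0.156.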

How the data were processed

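U-DNA-Seq was done on HCT116 cells, with 2 biological replicates for each condition. Per the methods, the authors aligned reads to GRCh38 with BWA 0.7.17-r1194, handled them with SAMtools 1.9-50 and Picard, removed blacklisted regions, and used deepTools 3.2.1 for coverage tracks of enriched and input DNA in 100 bp bins with 5000 bp smoothing. The deposited files list regions whose log2 ratio exceeded a threshold that the authors chose for each library, and the last value of a region was read as its mean log2 ratio. Libraries were sequenced at 2 providers, and since the labels do not give the provider of each library, its part in the differences was not tested. Of the deposited files, 16 were used and 6 were not, namely merged files of other groups and the regions of another cell line.

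Covered shares were computed over known bases of chromosomes 1 to 22 and X for 100 kb bins, protein-coding genes of GENCODE 44 and chromosomes. Arcsine square root shares were fitted with limma 3.58.1 in R 4.3.3, with trended and robust moderation for bins and genes, and p-values were adjusted by the Benjamini-Hochberg method over all features fitted. Features with no region in any library of the comparison were left out (2050 bins and 2848 genes). The fit was tested on simulated data. Single values per library were compared by a two-sided exact permutation test in Python 3.11.15. The genes named by length were the 12 longest in each direction with a difference of at least 50 percentage points. All members of the folate, uracil repair and mismatch repair lists could be named, and at most 4 of each other list. Some list members and 1 of the sequences chosen are not reported here. The members and lists were chosen with earlier results of these data known. Alternatives were a minimum region length of 5 kb, a common log2 limit of 0.34, the strongest 300 Mb of each library, relative shares, untransformed shares, a replicate block, 1 fit of 14 libraries, an adjusted p limit of 0.01, other bin sizes and gene sets, autosomes only, merged files, and leaving out each library.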

Additional observations from a re-analysis of the deposited data

Results flagged for a closer look

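In 42 of 27701 bins of 100 kb, the difference between RTX and no drug itself differed between MMR deficient and proficient cells by the interaction term of a limma fit, with adjusted p-values from 0.0438 to 0.0499. The difference was larger in deficient cells in 22 of them and in proficient cells in 20, and 9 lay on chromosome 12. In 12 bins every library moved one way in deficient cells and the other way in proficient cells, and in 6 of these the gap was at least 50 percentage points.

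The widest gap was in chr4:30600001-30700000, which holds no protein-coding gene. RTX covered 100% and 92.6% of it in deficient cells against 30.9% and 23.2% without drug, and 0% in both proficient libraries against 37.3% and 35.9%, a gap of 105.85 points. In chr4:30800001-30900000, which overlaps the protocadherin gene PCDH7, the gap was 71.3 points, with 66.9% and 59.7% against 29.5% and 11.5% in deficient cells. The adjacent bins chr12:88700001-88800000 and chr12:88800001-88900000 had gaps of 81.75 and 86.7 points. On chromosome 3 the gap ran the other way, at -56.2 points in chr3:24500001-24600000 and -73.1 points in chr3:168900001-169000000.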

How the results depend on the processing

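Each value below comes from changing 1 choice at a time. In the strongest 300 Mb of each library, 4224 bins and 4246 genes were higher, 11 chromosomes were lower, and 4834 bins were higher in MMR proficient cells and 1524 against 5FdUR. With regions of at least 5 kb, 6814 bins, 926 genes and 2 chromosomes were lower. Relative shares gave 11 lower chromosomes. Bins of 50 kb gave 14868 higher and 21104 lower, and bins of 500 kb gave 2160 and 3028, since their number differs. An adjusted p under 0.01 left 5831 genes higher and 1083 lower, and all annotated genes gave 19541 and 4591. With a log2 limit of 0.34, 0 bins were higher than after 5FdUR.

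For median region length (log2 of RTX over NT, -0.05 as reported) the value was 0.55 with regions of at least 5 kb, 1.70 with the log2 limit, 3.11 in the strongest 300 Mb and -0.30 in merged files. N50 (2.28) became 2.76, 3.64 and 3.15 under the last 3 of these. The mean log2 difference (0.0145) became -0.00744, 0.0331, 0.0785 and -0.0242 under the same 4 settings. The GC difference (11.3 points) became 12.3, 11.9, 12.4 and 11.9. The difference in the share within genes (21.6 points) became 24.5 with 5 kb, 20.2 in the strongest 300 Mb and 22.1 in merged files. The Jaccard index became 0.00621, 0.0138, 0.00935 and 0.0156. The difference in covered share of MTHFD2L turned to -10.2 points in the strongest 300 Mb. The cause of these changes was not tested.

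Leaving out 1 library at a time gave 280 to 5787 higher and 3181 to 13158 lower bins, and 2307 to 10050 higher and 519 to 2250 lower genes. It gave 380 to 6616 higher bins in MMR proficient cells and 0 to 390 against 5FdUR. The lone library of a group was assumed to vary like the other group. Of the 24 genes named by length, 11 to 16 kept their call, and 20 did in the strongest 300 Mb.

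Replicate 1 deviations of RTX and NT correlated at 0.025 over bins. The median covered share was 0 in both NT libraries for higher bins and in both RTX libraries for lower bins. With so little deviation in 1 of the groups, the correlation cannot show whether the replicate numbers pair the libraries. With the replicate block, 8738 bins were higher and 13538 lower, and 6426 genes were higher and 1259 lower.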
